A study of Mus musculus with 2 samples.

Results

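The abundant longer clusters of a mouse testis PAR-CLIP experiment were stretches of at least 21 bases with at least 1000 reads in the ALKBH5 library. They numbered 327 of the 2964 clusters in the deposited table. A cluster is a run of bases on 1 strand covered by reads, and the table gives its raw read count in 2 libraries. Members were chosen by their ALKBH5 read count and length, and the table itself lists clusters by a p-value on the same 2 counts, so every ratio given here is a description with no test. The study recovered RNA from testis of ICR mice, an outbred strain, at 10 weeks of age. All mice received 4-thiouridine in DMSO. Lysates were crosslinked at 365 nm and precipitated with a rabbit polyclonal antibody to ALKBH5 (the IP, 1 library) or with nonspecific IgG (the control, 1 library). With 1 library per group no replicate spread is known, and whether animals were pooled is not given in the sources used here.

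ALKBH5 is a nuclear enzyme that takes methyl groups off adenosines in RNA, and the testis is a tissue in which it is strongly expressed. In PAR-CLIP a photoreactive uridine is built into RNA and bound to nearby protein by light, so that crosslinked RNA survives the washes. The most abundant RNAs of a cell are ribosomal RNAs, made as 1 long precursor for most of them and from a separate repeated gene array for the small 5S RNA, along with transfer RNAs and the ribosomal RNAs of mitochondria. Such RNAs are common background in crosslinking experiments, which is why the IgG count stands beside each IP count here.

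Solving the deposited z-scores for the library totals gave 31668845 reads with the ALKBH5 antibody and 31031345 with IgG. It is not given in the sources used here if these totals hold every mapped read. Ratios are IP over IgG counts divided by these totals. Intervals in brackets are exact binomial (Clopper-Pearson) 95% intervals of the ratio. They cover counting error only, since PCR copies cannot be told from separate molecules here. Positions refer to build NCBIM37 of the mouse genome. The table names no genes and no annotation of that build was used here, so testis markers could not be checked and the names 45S region and 5S-like array are working names taken from the known places of these genes. No sequence of this build was at hand, so none is printed.

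The 327 members, 11.03% of the listed clusters, took up 51.2% of all IP reads and 43.5% of all IgG reads. Their summed ratio was 1.18 (1.18 to 1.18) and their median ratio 1.26. Of the 327, 72 reached a ratio of 1.5 and 21 a ratio of 2. Among all 2964 listed clusters, 77.5% reached 1.5 and 57.8% reached 2, counting those with no IgG reads as reaching both. The ratio was below 1 in 13 members, and 0.506% of all listed clusters lay below 1. The interval lay above 1 in 306 members, held 1 in 12 and lay below 1 in 9. Among the 2117 listed clusters with IgG reads it lay above 1 in 2083, held 1 in 25 and lay below 1 in 9. No member had an IgG count of 0. High counts in the IP came with high counts in IgG. Of the 100 listed clusters with the most IgG reads, 91 were members. The floor of the listing, given below, makes every cluster of 21 bases or more with that many IgG reads a member. That share therefore reflects cluster length alone. Across the 327 members the log10 counts of the 2 libraries had a Pearson correlation of 0.98, over clusters that share both libraries and the selection of the table.

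The selection sets a floor under these ratios. All 2964 listed clusters have a z-score above 0, so the table holds only clusters called higher in the IP after scaling within their strand. Together with the p threshold this allowed no ratio below 1.22 for a minus cluster with 1000 IP reads. With 20000 IP reads the floor was 1.08. For plus clusters the corresponding floors were 1.06 and 0.943, because each strand was scaled by its own totals in the table.

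**Figure D1:**
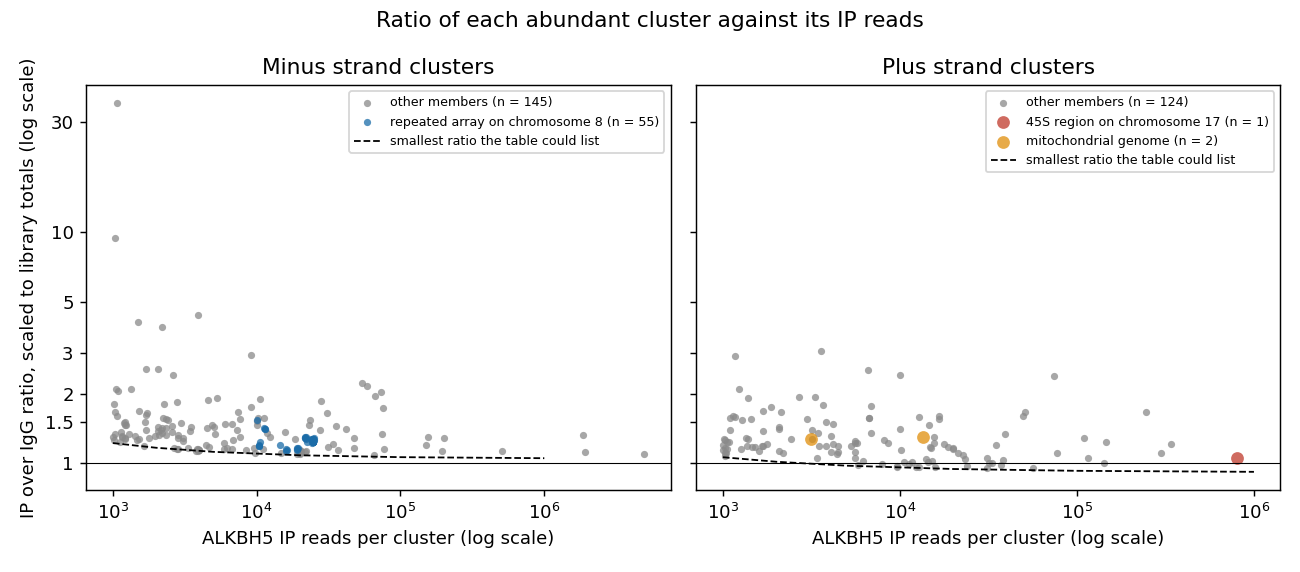
Ratio of IP to IgG reads, scaled to library totals, against the IP reads of each of the 327 members, on log axes, with minus clusters on the left and plus clusters on the right. Points are single clusters and the dashed line is the smallest ratio at which the table, which holds only positive z-scores under its p threshold, lists a cluster; most points sit between the line and a ratio of 1.5, the 45S region lies at 1.05, and few clusters exceed 3.

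The place on chromosome 17 with the working name 45S region had 1 listed cluster, and it was a member. It covered 3136 bases on the plus strand at 39982641 to 39985776, the longest cluster of the table. It held 803849 IP reads and 747871 IgG reads, 2.54% and 2.41% of the libraries. The ratio was 1.05 (1.05 to 1.06), lower than in the other named places. Per base this was 256 IP and 238 IgG reads. How reads with several matches were assigned is not given in the sources used here. These values therefore need not be the share or ratio of all large ribosomal RNA, whose reads may also be counted at other places.

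The array on chromosome 8 lies where mouse 5S ribosomal RNA genes, read by RNA polymerase III, are repeated in tandem. All of its 55 listed clusters were members, and all were on the minus strand. They made up 51 units over 84.97 kb, with starts 1595 to 1771 bases apart and a median spacing of 1698.5 bases. Of the units, 47 were 1 cluster and 4 were broken into 2 clusters. Of the 47 whole units, 28 were 125 or 126 bases long and 46 were 115 to 134 bases, while 1 reached 223 bases. The array held 1169823 IP and 920859 IgG reads, 3.69% and 2.97% of the libraries. Its summed ratio was 1.24 (1.24 to 1.25), above that of the 45S region on the scaling by totals of both strands. With the totals of each strand these ratios were 1.19 and 1.15.

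The units were not equally covered, and their counts fell into levels, named here after the values were seen. In 33 units the IP count lay between 23914 and 24843 and the IgG count between 18463 and 19628. Over these 33 units the IP count was 24638 ± 169 (SD over units) and the IgG count 19310 ± 219, where the square roots of the means, the spread of plain counting, are 157 and 139. The narrow IP range follows from how the level was cut, and the IgG spread of these units was above that of plain counting. The next level held 6 units with 21533 to 22246 IP and 16452 to 17730 IgG reads. A further 4 units had 19068 to 19279 IP and 16188 to 16383 IgG reads. The lowest whole units were 4 with 14444 to 16162 IP and 11829 to 13943 IgG reads. Units low in the IP were also low in IgG, with a Pearson correlation of 0.98 over the 47 whole units, which share both libraries.

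The ratio differed between the levels. In the 33 units of the top level it was 1.23 to 1.28, with a summed ratio of 1.25 (1.25 to 1.25). In the 6 units of the next level it was 1.23 to 1.30, summed 1.28 (1.27 to 1.29). The 8 units of the 2 lower levels had ratios of 1.13 to 1.20, all below the lowest ratio of the top level. Their summed ratios were 1.15 (1.14 to 1.17) for the 4 units near 19000 IP reads and 1.15 (1.14 to 1.17) for the other 4. The levels were set by the IP count, which is also the numerator of the ratio. The lowest ratio of the array was 1.13 (1.10 to 1.16), at 126096604 to 126096728, with 16082 IP and 13943 IgG reads. The unit with the most IP reads, at 126140704 to 126140829, drew 24843 against 19370, which gave 1.26 (1.23 to 1.28). How reads that match several units were assigned is not given in the sources used here, so counts of single units need not belong to single genes.

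The 4 broken units separated the ends of the RNA. In each, a gap of 3 to 9 bases without listed coverage split a lower-coordinate piece of 27 to 33 bases from a higher-coordinate piece of 85 to 88 bases. On the minus strand the short piece is the 3′ end and the long piece the 5′ part. The 3′ pieces had 10363, 10369, 10614 and 10402 IP reads and 8500, 8545, 8458 and 8606 IgG reads. The 5′ pieces had 11413, 10042, 11504 and 11300 IP reads and 7963, 6411, 8006 and 7834 IgG reads. The IP counts of the 2 ends thus overlapped, while the IgG counts were lower in all 4 of the 5′ pieces. The ratio was 1.18 to 1.23 in the 3′ pieces and 1.40 to 1.53 in the 5′ pieces, so the ranges did not overlap. Reads that match several units may be shared among these 4 units, which are therefore not independent replicates of this contrast. It rests on 1 IP and 1 IgG library, and the intervals that follow cover counting error only. Summed, the 3′ pieces had a ratio of 1.20 (1.18 to 1.22) and the 5′ pieces 1.44 (1.41 to 1.46). The highest ratio of the array, 1.53 (1.49 to 1.58), was the 5′ piece at 126108466 to 126108550. Whole units cannot be divided in this way, because the table gives 1 count per cluster.

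**Figure D2:**
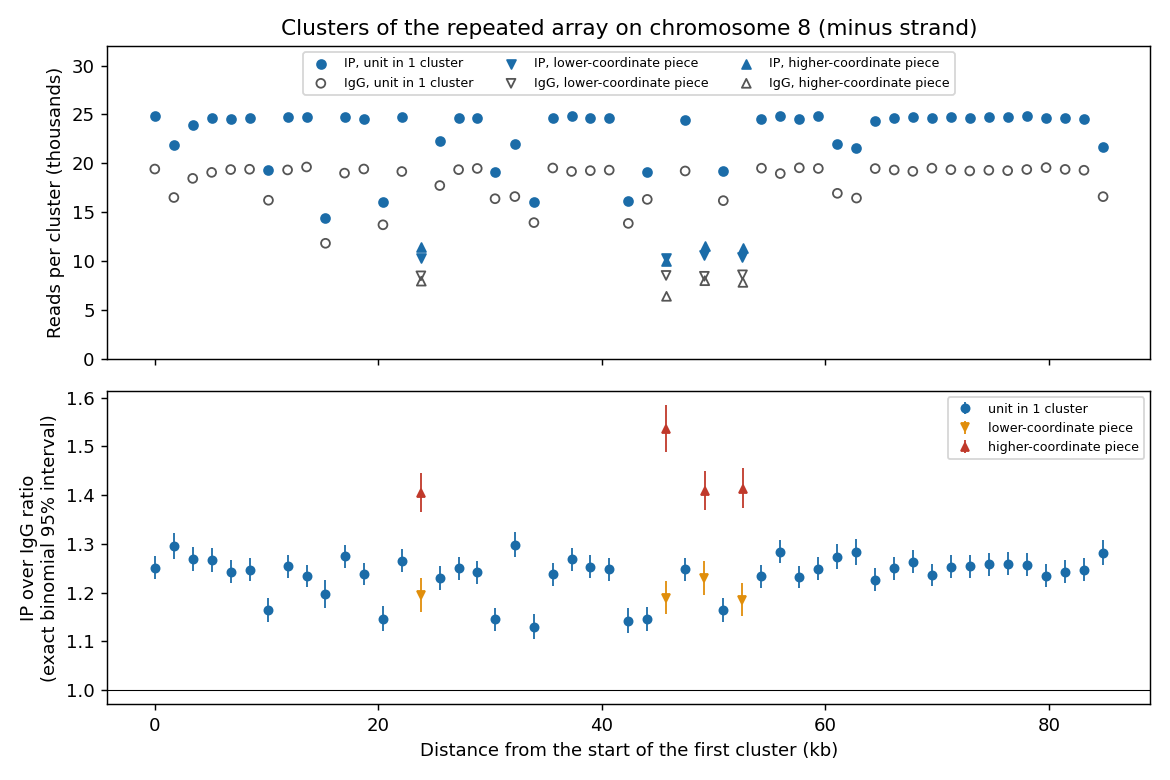
Reads per cluster in units of 1000 (upper panel, filled for the IP and open for IgG) and the ratio with its exact binomial 95% interval (lower panel) against the distance in kb from the first cluster of the array on chromosome 8. Most units lie near 24638 IP and 19310 IgG reads, 8 whole units dip in both libraries and in ratio, and the 4 higher-coordinate pieces stand at 1.40 to 1.53 above all other clusters.

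The mitochondrial genome, whose 2 ribosomal RNA genes lie next to each other on the plus strand, had 2 members among its listed clusters. They lay at 244 to 1004 and at 1024 to 2670, separated by 19 bases. The first drew 13468 reads with the ALKBH5 antibody against 10148 with IgG, which gave 1.30 (1.27 to 1.33). The second drew 3154 against 2441, which gave 1.27 (1.20 to 1.34). The first ratio over the second was 1.03 (Wald interval of the log ratio, 0.968 to 1.09), so the 2 were not told apart by counting. Their coverage per base was unequal, with 17.7 IP reads per base in the first and 1.92 in the second, and 13.3 and 1.48 in IgG. Together they took 0.0525% of all IP reads and 0.0406% of all IgG reads. On the minus strand, opposite or within 1 kb of the second, clusters of 13, 26 and 43 IP reads with IgG counts of 0 were listed, far below the minimum of 1000.

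The repeated group on chromosome 6, with the working name tRNA-like, had 8 listed clusters and no member. Their IP counts were 673 to 734 and their IgG counts 498 to 556, and 2 of the 8 were shorter than 21 bases. Their ratios were 1.27 to 1.41.

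The other 269 members, 145 minus and 124 plus, held 87.7% of the members' IP reads and had a summed ratio of 1.18 (1.18 to 1.18). The reads were concentrated in few clusters. Over all 327 members, 3 held 53.8% of the IP reads, 17 were needed for 75% and 87 for 90%. The minus cluster of chromosome 16 at 57391222 had the most reads, 4931650 IP and 4411757 IgG, 15.6% and 14.2% of the libraries. Minus clusters of chromosome 5 at 23907910 (1934346 and 1703114) and chromosome 18 at 73693060 (1862759 and 1373071) followed. Coverage per base ordered the largest clusters differently from total reads. The 25-base minus cluster of chromosome 5 at 23907910 had 77374 IP and 68125 IgG reads per base. The 138-base minus cluster of chromosome 18 at 73693060 followed with 13498 and 9950. The 30-base plus cluster of chromosome 16 at 94343132 had 11365 and 9245, and the 569-base minus cluster of chromosome 16 at 57391222 had 8667 and 7754. Their ratios were 1.11, 1.33, 1.20 and 1.10. The next, a 31-base plus cluster of chromosome 17 at 69733218, had 7949 and 4696 reads per base and a higher ratio, 1.66.

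Clusters with many reads and a ratio of at least 1.5 were mostly short. They were picked out after their values were seen, as the 12 of the 59 other members with at least 20000 IP reads that reached a ratio of 1.5. That is 20.3%, near the 22.0% of all members and below the 77.5% of all listed clusters. Of the 12, 10 were 33 bases or shorter, among 37 deep members of that length (27.0%). The remaining 2 came from 22 deep members of 34 bases or longer (9.09%). On chromosome 18 the 26-base plus cluster at 67271920 to 67271945 drew 74547 reads with the ALKBH5 antibody against 30687 with IgG, which gave 2.38 (2.35 to 2.41). On chromosome 14 the 29-base minus cluster at 80168706 to 80168734 drew 54169 against 23800, which gave 2.23 (2.20 to 2.26). These 2 and the following 2 were the deep members at a ratio of at least 2.

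On chromosome 6 the 30-base minus cluster at 87863889 to 87863918 drew 58191 reads with the ALKBH5 antibody against 26340 with IgG, which gave 2.16 (2.13 to 2.20). On chromosome 1 the 23-base minus cluster at 134087336 to 134087358 drew 73168 against 35186, which gave 2.04 (2.01 to 2.06). Scaled to the totals of each strand the minus cluster on chromosome 1 fell to 1.95, while the other 3 were at 2.07 to 2.61. Next came chromosome 16, where 26 bases of the minus strand at 92699119 to 92699144 drew 66007 reads against 33210, which gave 1.95 (1.92 to 1.97). All 5 were 23 to 30 bases long. What RNAs they come from was not determined.

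The 10 highest ratios among the members ran from 2.54 to 36.1, and none of these clusters had more than 9075 IP reads. The deepest of them lay on chromosome 9, where a 22-base minus cluster at 121156367 to 121156388 drew 9075 reads with the ALKBH5 antibody against 3021 with IgG, which gave 2.94 (2.82 to 3.07). On chromosome 2 a 25-base plus cluster at 129873829 to 129873853 drew 3567 against 1148, which gave 3.04 (2.85 to 3.26). On chromosome 7 the 22-base minus cluster at 150624242 to 150624263 drew 2198 against 553, which gave 3.89 (3.55 to 4.28). On the X chromosome a 21-base plus cluster at 19868844 to 19868864 drew 1166 against 393, which gave 2.91 (2.59 to 3.27). On chromosome 3 a 39-base minus cluster at 122322388 to 122322426 drew 2071 against 798, which gave 2.54 (2.34 to 2.76). On chromosome 9 a further 22-base minus cluster (87628589 to 87628610) stood at 2.57 (2.34 to 2.81). The other 4 were also 21 to 26 bases long, and the 39-base cluster was the longest of the 10.

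Among the 269 other members, 41 of 121 clusters of 21 to 25 bases and 18 of 50 of 26 to 33 bases reached a ratio of 1.5. At 34 to 49 bases 7 of 35 did, at 50 to 99 bases 4 of 33, and at 100 bases and over 1 of 30. The median ratios of these classes were 1.30, 1.40, 1.28, 1.17 and 1.19. Summed over reads, the class of 26 to 33 bases stood at 1.33 (1.33 to 1.34) and that of 21 to 25 bases at 1.17 (1.17 to 1.17). The cluster of chromosome 5 at 23907910 held 60.8% of the IP reads of the shorter class, which stood at 1.26 (1.26 to 1.27) without it. The class of 26 to 33 bases stood at 1.36 (1.36 to 1.37) without its own largest cluster. Depth moved with length too, with median IP reads of 3934, 6720.5, 3432, 7442 and 11871, and its part in the trend was not tested. Among the 59 members with at least 20000 IP reads the class of 26 to 33 bases again had a summed ratio of 1.33 (1.33 to 1.34), against 1.14 (1.14 to 1.14) at 21 to 25 bases and 1.15 (1.15 to 1.15) at 100 bases and over. The 4 deep members of 34 to 49 bases were at 1.35 (1.35 to 1.36). Without the largest cluster of each, the deep classes of 21 to 25, 26 to 33 and 100 bases and over stood at 1.22, 1.37 and 1.26. Single clusters thus set much of the low sums of the shortest and the longest class.

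The strands are not comparable on this scale, since the listing floor is higher for minus clusters and lay above 1 at every depth computed. Among the other members minus clusters had a median of 1.34 and plus clusters one of 1.20, and the 13 members with a ratio below 1 were plus clusters, the one strand on which the listing admits them. Scaled to the totals of each strand the medians were 1.28 and 1.32, so this order of the strands turned with the scaling, and no listed cluster can lie below 1. The 5 lowest members stood at 0.949 to 0.958 on the first scaling and at 1.04 to 1.05 on the second. Within the length classes the minus medians were higher throughout on the scaling by totals of both strands. They were 1.34 and 1.23 at 21 to 25 bases, 1.42 and 1.39 at 26 to 33 bases, 1.40 and 1.23 at 34 to 49, 1.36 and 1.10 at 50 to 99, and 1.27 and 1.06 at 100 bases and over. With the totals of each strand they were 1.28 and 1.34 at 21 to 25 bases and 1.36 and 1.52 at 26 to 33. At 34 to 49 both were 1.34, at 50 to 99 they were 1.30 and 1.21, and at 100 and over 1.22 and 1.16. Minus medians were then lower in the 2 shortest classes and higher in the 2 longest. On each strand the median was highest at 26 to 33 bases and lowest at 100 bases and over.

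**Figure D3:**
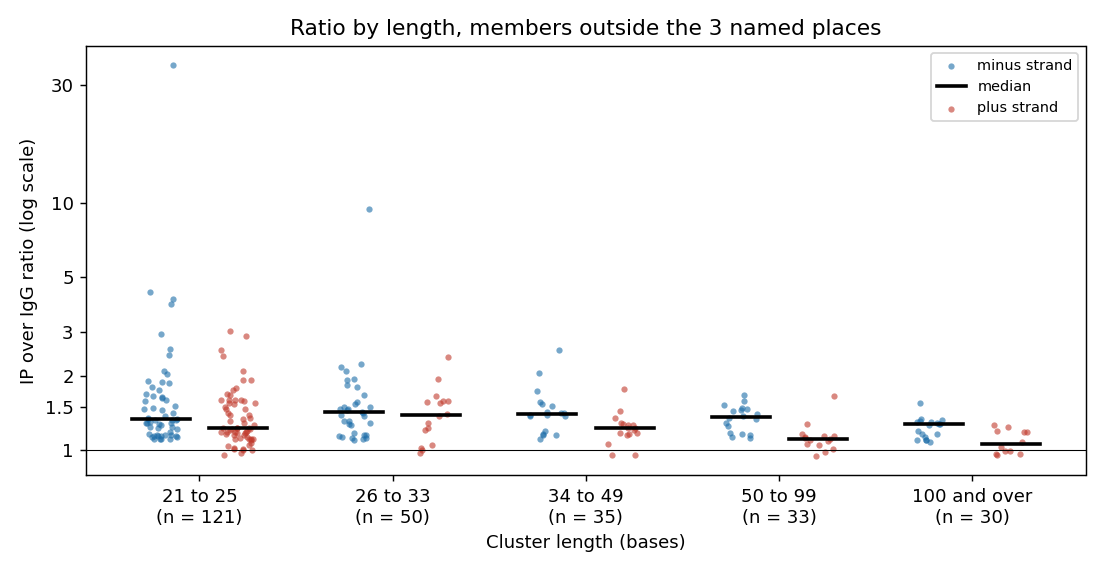
Ratio of IP to IgG reads on a log axis for the 269 members outside the 45S region, the array and the mitochondrial genome, by cluster length in bases, with minus clusters in blue, plus clusters in red and the median of each group as a bar. Clusters above a ratio of 3 are all in the 2 classes shorter than 34 bases, and the plus medians fall to 1.06 at 100 bases and over.

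Members that lay next to each other often differed in ratio by more than counting error. Outside the array, 27 members formed 14 neighbouring pairs with gaps of at most 10 kb, 11 on the same strand and 3 on opposite strands. The Wald 95% interval of 1 ratio over the other left out 1 in 9 of the 11 and in 2 of the 3. In 10 of the 11 same-strand pairs the shorter cluster had the higher ratio, and in 9 of the 11 the one with fewer IP reads had it. These counts include the pairs on chromosome 12 and the mitochondrial genome, whose intervals held 1. The listing floor rises as reads fall, so a neighbour with few reads is listed only above a higher ratio. The part of the floor in these counts was not tested. The higher ratio lay in the 5′ cluster in 5 of the 11.

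The largest contrast was on the X chromosome, where 2 plus clusters lay 55 bases apart. The 65-base cluster at 100867895 to 100867959 drew 2129 reads with the ALKBH5 antibody against 1257 with IgG, which gave 1.66 (1.55 to 1.78). The 42-base cluster at 100868015 to 100868056 drew 12321 against 12612, which gave 0.957 (0.934 to 0.981). The first ratio was 1.73 times the second (1.61 to 1.87), the one same-strand pair in which the longer cluster had the higher value.

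On the minus strand of chromosome 18, 2 clusters with many reads lay 64 bases apart. The 121-base cluster at 85867389 to 85867509 drew 149288 reads with the ALKBH5 antibody against 122510 with IgG, which gave 1.19 (1.19 to 1.20). The 38-base cluster upstream of it in the direction of the strand, at 85867574 to 85867611, drew 75047 against 42329, which gave 1.74 (1.72 to 1.76). The second ratio was 1.45 times the first (1.43 to 1.48).

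On chromosome 2, plus clusters at 26976689 to 26976769 and 26976782 to 26976829 had 3400 and 2063 IP reads and 3153 and 1405 IgG reads. The ratios were 1.06 and 1.44, and the second was 1.36 times the first (1.25 to 1.48). On chromosome 7, minus clusters at 117203197 to 117203334 and 117203339 to 117203382 had ratios of 1.10 and 1.38, the second 1.25 times the first (1.19 to 1.33). On chromosome 11 the plus clusters at 17121282 and 17121414 had ratios of 0.990 and 1.18, and on chromosome 19 those at 13129238 and 13129531 had 1.13 and 1.38. In all 4 places the cluster with fewer reads had the higher ratio, the direction in which the listing floor also moves.

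Near the start of chromosome 6, 3 plus clusters covered 3150765 to 3151671 with gaps of 2 and 13 bases. Their lengths were 226, 608 and 58 bases. They had 34879, 38407 and 5607 IP reads and 28646, 36602 and 4903 IgG reads. The ratios were 1.19 (1.17 to 1.21), 1.03 (1.01 to 1.04) and 1.12 (1.08 to 1.16), lowest in the long middle cluster.

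Pairs of members on opposite strands lay at 3 places. On chromosome 5 a 69-base plus cluster at 115301978 to 115302046 had 297114 IP and 263497 IgG reads. The 59-base minus cluster 59 bases away, at 115302106 to 115302164, had 74655 and 54943 reads. The minus ratio, 1.33, was 1.21 times the plus ratio of 1.10 (1.19 to 1.22). On chromosome 10 a plus cluster at 82417835 to 82417870 overlapped a minus cluster at 82417862 to 82417986 by 9 bases, the one overlap between members of opposite strands, with ratios of 1.35 and 1.16. On chromosome 7 clusters at 29922592 and 29922628 had ratios of 1.17 and 1.14, with a quotient whose interval held 1 (0.954 to 1.01). These comparisons depend on the scaling. With the totals of each strand the pair on chromosome 7 stood at 1.28 for plus and 1.09 for minus, a quotient of 0.857 (0.833 to 0.881), so that the interval left out 1 in all 3 pairs. On chromosome 10 the values became 1.48 and 1.11. The pair on chromosome 5 kept its order, with 1.27 for minus and 1.21 for plus, and its quotient fell from 1.21 to 1.05 (1.04 to 1.07).

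**Figure D4:**
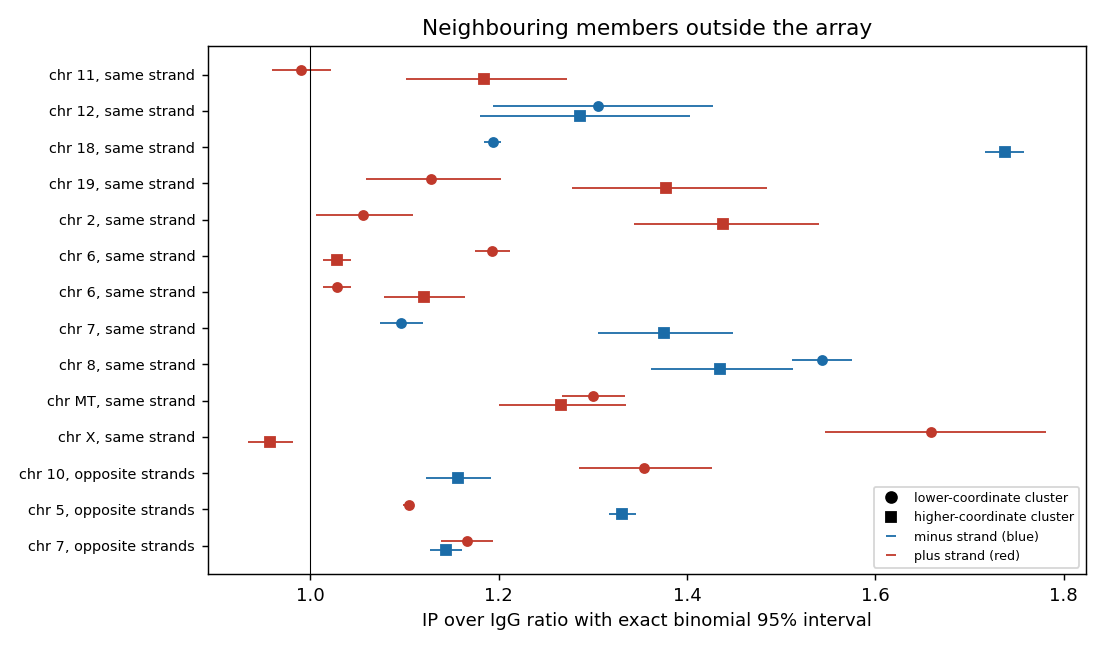
Ratio of IP to IgG reads with its exact binomial 95% interval for both clusters of each of the 14 neighbouring pairs outside the array, as circles for the lower and squares for the higher coordinate, blue for minus and red for plus. Intervals of the 2 clusters are apart in most same-strand pairs, widest on the X chromosome at 1.66 and 0.957, and close together for chromosome 12 and the mitochondrial genome.

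Some clusters on different chromosomes had almost the same counts. Of the 95 other members with at least 10000 IP reads, 8 minus clusters on 5 chromosomes matched each other within 3 square roots of the summed counts in both libraries, a limit set after the values were seen. Their lengths were 22 to 50 bases. Their IP counts ran from 19907 to 20226, 20081 ± 121 (SD over clusters), and their IgG counts from 17363 to 17808, 17623 ± 157. The square roots of the means are 142 and 133, and the small spread follows from the limit that chose the set. They lay on chromosome 2 at 18531348 and 28327706, chromosome 4 at 53024816 and 82159182, chromosome 11 at 3102767 and 115999794, chromosome 12 at 56086958 and chromosome 15 at 76288180. Their ratios were 1.10 to 1.14, with a summed ratio of 1.12 (1.11 to 1.12). No other set of 3 or more matched at this depth. Whether these clusters share a sequence was not checked.

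Beside the rest of the table the members had low ratios. The 257 listed clusters of the same lengths with at least 200 but under 1000 IP reads include 254 with IgG reads, and these had a median ratio of 1.54. The 179 clusters of 20 bases or shorter with at least 1000 IP reads had a median of 1.37, and the 2117 listed clusters with IgG reads a median of 1.79. The members' median was 1.26, but the floor of the listing falls with depth, so these medians were partly set by it. No test of the differences was possible with 1 library per group. Choosing by IgG reads in place of IP reads gave 278 clusters of 21 bases or more with at least 1000 IgG reads, with a median ratio of 1.25. All were members, which the listing floor fixed in advance, since it requires more than 1000 IP reads at that IgG count. The 49 members with fewer IgG reads had a median of 1.49. They were split off by a low IgG count, the denominator of the ratio, so a higher median follows from the choice.

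The clusters at the thresholds had ratios like those of their neighbours in depth. Just inside, the members with 1001, 1005 and 1006 IP reads had ratios of 1.14, 1.20 and 1.30. Just outside, clusters with 999, 997 and 990 IP reads had 1.19, 1.20 and 1.35. The 27 members of exactly 21 bases had a median ratio of 1.34, and the 30 clusters of 20 bases with as many IP reads had 1.29.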

How the data were processed

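The deposited table holds raw read counts per cluster for both libraries, per the file headers. Reads were aligned with BWA 0.5.8 to NCBIM37, per the submitters' processing notes. For cluster calling, reads with several matches and the test, the method is not given in the sources used here. Log2 fold changes, a score (a z-score) for each cluster, p-values and q-values were deposited. A normal approximation for the log ratio given its mean, with library totals per strand as unknowns, returned every deposited z-score within 4.08e-08 and so gave the totals. The listed p-values are the two-sided p of those z-scores, all under the threshold of 0.001 named in the header. Members are clusters of 21 bases or more with at least 1000 IP reads. Counts were scaled to library totals with no pseudocount, and exact binomial 95% intervals were computed. Quotients of 2 ratios have Wald intervals of the log. No p-value was computed. Ratios and interval coverage were tested on simulated counts with counting error only. The simulation held no PCR copies, shared reads or spread between libraries, so it checks the computation alone.

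Clusters were named by rule: all in the 45S region and the mitochondrial genome, the extremes of the array, and among others the 10 with the most IP reads, 10 highest and 5 lowest ratios, 5 longest, 3 most read per length class, neighbours and threshold clusters. Members, lists and rule were chosen with earlier results of these data known. Count levels, matching counts, deep clusters at a ratio of 1.5, sums without the largest cluster of a length class and strand totals for pairs on opposite strands were chosen after values were seen. Computations ran in Python 3.11.15 with SciPy 1.17.1, NumPy 2.4.6 and pandas 2.3.3, and plots in Matplotlib 3.10.9.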

Additional observations from a re-analysis of the deposited data

How the results depend on the processing

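With 1 library per group no library could be left out, and counting error is all that the intervals cover. No paired analysis was possible because a single IP library stands against a single IgG library. Scaling each strand to its own totals gave summed ratios of 1.16 for all members, 1.15 for the 45S region, 1.19 for the array, 1.42 for the mitochondrial genome and 1.16 for the other members. All 13 members below 1 rose above it, 7 of them named by the rule. This was fixed by the listing, which holds only positive z-scores on the totals of each strand. For 5 of the 7 the interval had left out 1: chromosome 12 at 70782705 (1.05), 15 at 47371532 (1.05), 17 at 78535907 (1.05), 3 at 61963215 (1.04) and X at 100868015 (1.05). The others, with intervals that had held 1, were on chromosome 11 at 17121282 (1.09) and 19 at 28556723 (1.09).

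Members held 51.2% of all IP reads, and all listed clusters with IgG reads held 55.1%. Scaling to the sum of the listed clusters therefore sets the members' summed ratio near 1 by construction. The share of all listed clusters at 1.5 is not given on this scale. This scaling multiplies every ratio by 0.839 and left 33 members at a ratio of 1.5 and a median of 1.06. It gave summed ratios of 0.989 for all members, 0.884 for the 45S region, 1.04 for the array, 1.09 for the mitochondrial genome and 0.991 for the others. It put 110 of the 327 members below 1, 89 of which had an interval above 1 before, and 20 named clusters were among the 89: on chromosome 17 at 39982641 (0.884), 10 at 82417862 (0.971), 11 at 17121414 (0.994), 13 at 48764480 (0.930) and 113368384 (0.907), 16 at 57391222 (0.919), 18 at 10052126 (0.965), 19 at 13129238 (0.948), 2 at 26976689 (0.887) and 131178604 (0.943), 5 at 23907910 (0.934) and 115301978 (0.928), 6 at 3150993 (0.863) and 3151614 (0.941), 7 at 29922592 (0.979), 29922628 (0.961) and 117203197 (0.920), 9 at 56071380 (0.949) and 80247271 (0.961), and 8 at 126096604 (0.949).

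With the 45S region as the scale the median was 1.20. Summed ratios were 1.12 for all members, 1.18 for the array, 1.23 for the mitochondrial genome and 1.12 for the others. This scale put 25 of the 327 members below 1, 5 of which had an interval above 1 before. The 1 named cluster among the 5 was that on chromosome 6 at 3150993 (0.976). With at least 5000 IP reads, 30 of 192 members reached 1.5, the median was 1.24 and summed ratios were 1.17 for all and 1.18 for the others. With at least 500, 122 of 431 did, with a median of 1.30 and summed ratios of 1.18 and 1.18. At 31 bases or more 17 of 161 did, with 1.16 and 1.17. A ratio of 2 was reached by 21. Without the 3 largest clusters the summed ratios were 1.22 for all and 1.25 for the others. Chosen by IgG reads, an alternative added after the values were seen, they were 1.18 and 1.18. Of the 327 members, 71 reached 1.5 with the totals of each strand, 53 with the 45S scale and 72 with 1 added to both counts. With 1 cluster per locus 69 of 263 did, and with the choice by IgG 48 of 278.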

Other observations

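Beyond the neighbouring pairs, 20 members had a further listed cluster under the length or read minimum within 1 kb. On the minus strand of chromosome 7 a 26-base member at 104698276 had 2802 IP and 1498 IgG reads. It was flanked by a 22-base cluster at 104698175 with 446 and 309 reads and a 29-base cluster at 104698321 with 747 and 350 reads. Their ratios were 1.41 (1.22 to 1.64) and 2.09 (1.84 to 2.38), on either side of the member's 1.83.

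On the minus strand of chromosome 17, 81 bases at 66798108 drew 203 reads in the IP against 51 with IgG, which gave 3.90 (2.86 to 5.41), beside a 26-base member at 66798343 at 21846 against 19249 reads, which gave 1.11. On the Y chromosome a 32-base cluster at 328161 with 67 and 9 reads had a ratio of 7.29 (3.62 to 16.6), beside the 89-base member at 328067 with a ratio of 1.57. On the plus strand of chromosome 12, 48 bases at 55236167 had 59 and 5 reads, a ratio of 11.6 (4.68 to 36.9), directly beside a 44-base member at 55236123 with a ratio of 1.17. The listing floor lets clusters this small into the table only when the ratio is high.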
